A study of Mus musculus with 48 samples.

Results

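Adrb1, Adrb3, Adra1a, Adra1b, Adra1d, Adra2a, Adra2b and Adra2c, 8 genes of the adrenergic receptor family, were followed through RNA-seq of primary mouse cells. They were chosen by name, with earlier results of these data known, and each has 1 row among the 50764 rows of the count tables. They are not the whole family, and every sum and share below covers these 8 genes only. The cells came from 4 mouse lines, each heterozygous for a Cre-dependent BERKY3 biosensor, a reporter of the active form of 1 G alpha protein, whose short name stands for the line here. Gas*-BERKY3 mice gave primary brain astrocytes, seeded at 430000 cells per well, and Gai*-BERKY3, Gaq*-BERKY3 and Ga13*-BERKY3 mice gave primary lung fibroblasts, seeded at 160000 per well. About 18 h after seeding the cells received AAV2/1-CMV-Cre, which turns the biosensor on, or AAV2/1-CMV-empty, at a 500-fold dilution in astrocyte wells and a 1000-fold dilution in fibroblast wells, all with 6 µg/ml of the transduction aid polybrene. They were then left unstimulated in fresh medium or given agonist for 90 min: 1 µM isoproterenol, a synthetic agonist of beta-adrenergic receptors, for astrocytes, and 100 µM TRAP-6, a peptide agonist of the thrombin receptor PAR1, for fibroblasts. Line, state and virus make 16 groups of 3 libraries, 48 in all. Every group carries the biosensor allele, and astrocytes and fibroblasts differ in line, agonist, virus dilution and seeding at once, which cannot be told apart. The labels used here give no age, sex or number of animals and do not say whether replicates are separate cultures, so each p-value reflects only how far these samples scatter, and that scatter may be technical.

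Adrenergic receptors are G protein-coupled receptors for noradrenaline and adrenaline. Beta receptors couple to Gs and raise cAMP, alpha-1 receptors couple to Gq and activate phospholipase C, and alpha-2 receptors couple to Gi and lower cAMP. In the brain, astrocytes are a main target of the noradrenaline released from locus coeruleus neurons, through receptors of all 3 classes. A beta receptor that stays occupied is commonly turned down, by phosphorylation and arrestin binding at the membrane and also through the amount of its RNA.

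Levels are given as counts per 1000000 counts of the library (CPM), and levels of different genes are compared only as CPM per kb of exon length. Libraries held 15.6 to 42.6 M counts (M, units of 1000000). The biosensor sequence averaged 0.0401 to 0.725 CPM in the groups with empty virus and 20.2 to 133 CPM in those with Cre. Summed markers of astrocytes stood at 9072 to 9894 CPM in Gas libraries and at 172 to 301 CPM in fibroblasts. Those of fibroblasts stood at 27926 to 48821 CPM in fibroblasts and at 1666 to 2078 CPM in Gas libraries, where the lung fibroblast factor Tcf21 was at 0. Gas libraries also held markers of smooth muscle and pericytes (2474 to 2788 CPM in sum), the oligodendrocyte lineage (853 to 1026), neurons (534 to 586), ependymal cells (316 to 371) and microglia and macrophages (162 to 185). Most of the ependymal sum was Foxj1, at 299 to 353 CPM. The smooth muscle and pericyte sum lay within the range of the fibroblast libraries, 1820 to 4051 CPM. The part of any such other cells in the astrocyte values below was not tested. In bulk samples fewer cells of a type and less RNA per cell cannot be told apart.

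By level per kb, resting astrocytes carried mainly Adrb1 and Adra1d, and fibroblasts carried mainly Adra1b, Adra1d and Adra2a. The order depends on the exon lengths used. In CPM, unstimulated Gas astrocytes had means of 26.6 for Adra1d and 22.7 for Adra2a. Unstimulated Gaq fibroblasts had 8.28 CPM for Adra2a and 7.93 for Adra1b. In unstimulated Gas astrocytes the level per length was 23.5 ± 3.84 CPM per kb (mean ± SD over 6 libraries of both viruses) for Adrb1, the beta-1 receptor, and 14.02 ± 1.20 for Adra1d, the alpha-1D receptor. It was 4.70 ± 0.177 CPM per kb for Adra2a, the alpha-2A receptor, 2.33 ± 0.235 for Adra1b, the alpha-1B receptor, and 1.95 ± 0.165 for Adra1a, the alpha-1A receptor. Lower still were Adrb3, the beta-3 receptor best known from fat cells, at 1.03 ± 0.137 CPM per kb, Adra2c at 0.545 ± 0.103 and Adra2b at 0.0113 ± 0.00906. Of the neighbours in this order only Adra1b and Adra1a had overlapping ranges.

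In unstimulated fibroblasts Adra1b came first in each line, with 5.21 ± 0.791 CPM per kb in Gai, 3.24 ± 0.646 in Ga13 and 2.35 ± 0.578 in Gaq (SD, n = 6). Adra1d followed with 3.05 ± 0.464, 2.10 ± 0.416 and 1.88 ± 0.277 CPM per kb, and Adra2a with 0.926 ± 0.0980, 1.44 ± 0.280 and 1.71 ± 0.249, in the same order of lines. The ranges of these neighbours overlapped in Gaq and Ga13 and not in Gai. Adrb3 averaged 0.194 to 0.382 CPM per kb and Adrb1 0.103 to 0.132, with overlapping ranges in every line. The other genes were near the limit of counting: over the 12 libraries of a line Adra1a had 18 counts in Gai, 17 in Gaq and 16 in Ga13, and Adra2c had 2, 3 and 3. Adra2b had 11 counts in Gai, 2 in Ga13 and 0 in Gaq, where a count of 0 allows up to 0.0121 CPM (3 counts of the summed total, counting error only). At this depth Adra1a, Adra2b and Adra2c could not be followed across conditions in fibroblasts, nor Adra2b in astrocytes.

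**Figure D1:**
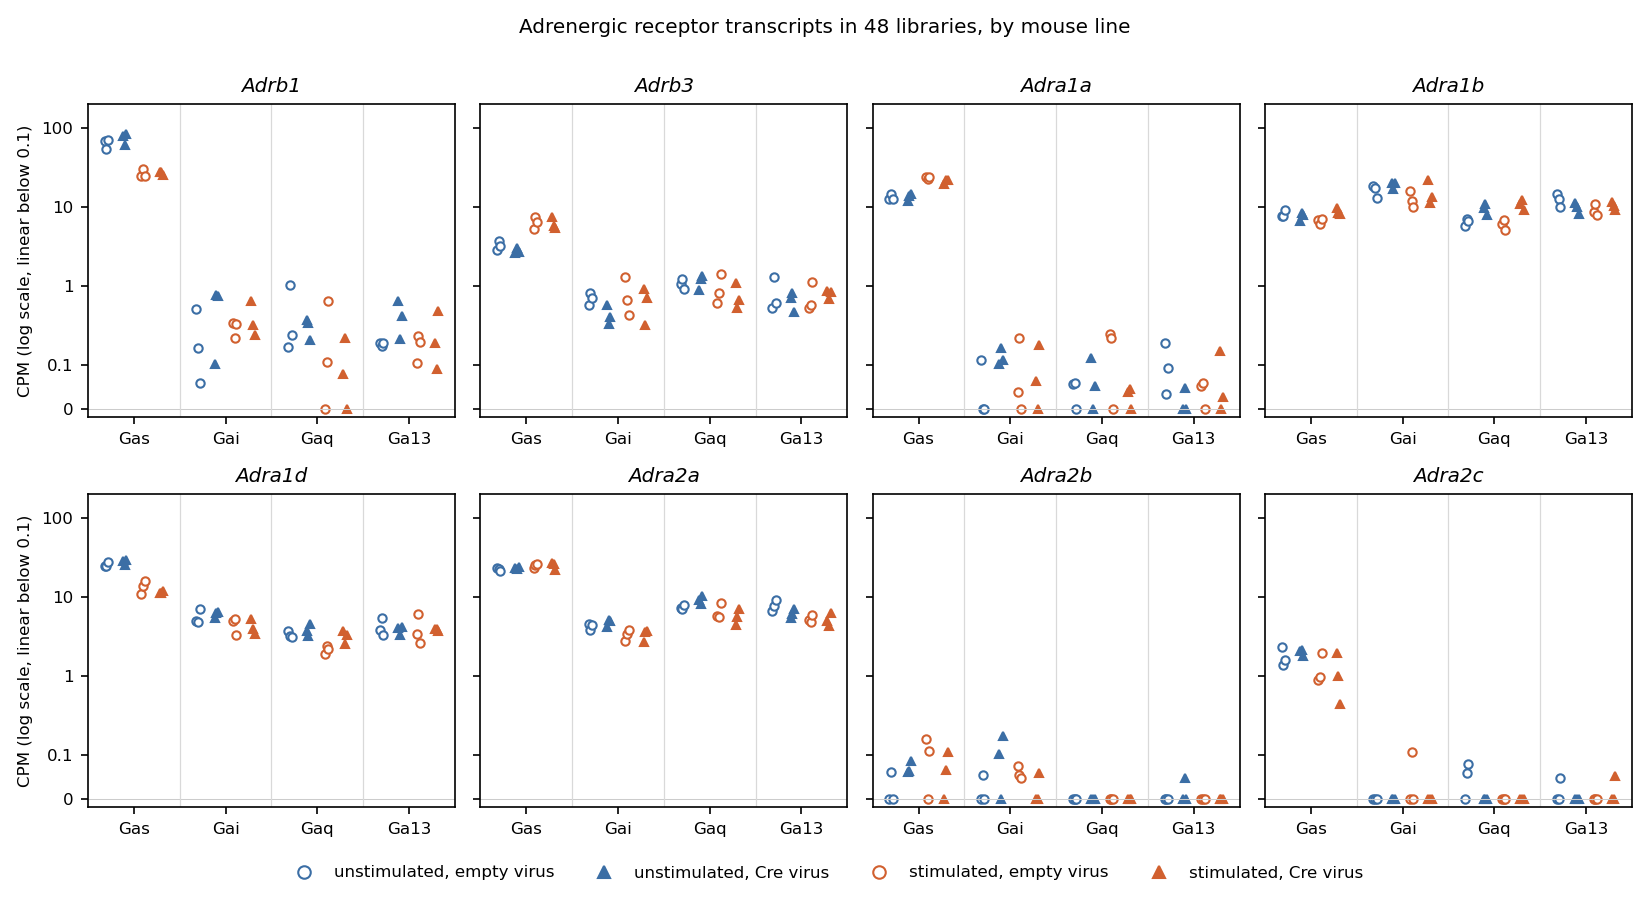
Level of each receptor gene in the 48 libraries (CPM, log axis, linear below 0.1) by mouse line, with markers by state and virus. Adrb1 lies between 24.7 and 83.98 CPM in astrocytes and at or below 1.03 CPM in every fibroblast library, and Adra1b reaches 21.5 CPM in Gai fibroblasts.

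Differences were tested with edgeR's quasi-likelihood F test, with Benjamini-Hochberg adjustment over all genes that passed a filter on low counts, and a gene was called at an adjusted p under 0.05. In unstimulated cells given empty virus, 7 of the 8 receptor genes could be tested between astrocytes and the mean of the 3 fibroblast lines, and 7 were called, where 80.1% of tested genes were called. Adrb1 stood at 68.6, 53.5 and 70.00 CPM in astrocytes against 0.0585 to 1.03 CPM in the 9 fibroblast libraries, a log2 difference of 7.36 ± 0.23 (SE, edgeR adjusted p = 9.91e-27). Adra1a stood at 12.6, 14.5 and 12.6 CPM against 0 to 0.190 CPM, a difference of 7.41 ± 0.29, which rests on 11 fibroblast counts and was 8.44 without replicate 1 of Gai. Adra2c, the alpha-2C receptor, had 106 counts against 4, a ratio of CPM of 83.1 (95% exact interval 31.5 to 311, counting error only), and its fitted log2 difference of 6.18 was 6.82 without replicate 3 of Ga13. These 3 genes were far higher in astrocytes than in any fibroblast library. Astrocytes were also higher in Adra1d by 2.08 ± 0.14, in Adrb3 by 1.42 ± 0.25 and in Adra2a by 1.33 ± 0.11 on the log2 scale. Adra1b was the 1 gene of the 7 lower in astrocytes, with a log2 difference of -0.91 ± 0.16 (edgeR adjusted p = 2.24e-06), at 8.13 ± 0.788 CPM against 16.2 ± 2.80 in Gai, 6.42 ± 0.687 in Gaq and 12.2 ± 2.28 in Ga13 (SD, n = 3). In CPM, which uses library totals without the TMM scaling of the fit, the Gaq mean lay below the astrocyte mean. The pooled ratio of CPM, astrocytes over fibroblasts, was 0.711 (95% exact interval 0.642 to 0.785, counting error only). The fitted difference and these CPM are thus on different scales, and astrocytes against Gaq alone was not tested.

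Isoproterenol went with less RNA of the beta-1 receptor in astrocytes and more of the beta-3 receptor. The mean response over both viruses called 5 of the 7 receptor genes tested, 3 higher and 2 lower, where 23.3% of genes were called, 11.7% higher and 11.5% lower. Adrb1 measured 68.6, 53.5 and 70.00 CPM at rest with empty virus and 79.7, 61.1 and 83.98 CPM with Cre. With isoproterenol it measured 24.7, 29.9 and 24.7 CPM with empty virus and 27.3, 27.8 and 25.6 CPM with Cre. Every stimulated library lay below every unstimulated one. The log2 change was -1.23 ± 0.13 with empty virus (edgeR adjusted p = 1.89e-05) and -1.43 ± 0.13 with Cre (edgeR adjusted p = 3.59e-06). Under each virus alone 4 of 7 genes were called, where 14.7% and 14.3% of genes were called.

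Adrb3 measured 2.88, 3.67 and 3.16 CPM at rest with empty virus and 2.57, 2.99 and 2.66 CPM with Cre. With isoproterenol it measured 5.25, 7.50 and 6.41 CPM and 7.36, 5.73 and 5.37 CPM. Here every stimulated library lay above every unstimulated one, so the beta-1 and beta-3 RNAs moved in opposite directions in the same libraries. The mean log2 change was 1.12 ± 0.13 (edgeR adjusted p = 1.51e-08). Of the 2893 exonic bases of Adrb3, 545 overlap the gene model Gm45470 on the opposite strand, and the strand setting of the counting is not given in the sources used here, so the part of its counts that comes from Gm45470 is not known. The summed level of fat cell markers was 1.99 to 4.31 CPM at rest and 7.65 to 9.50 CPM with isoproterenol. Most of it was 1 gene, Cidea, at 1.87 to 9.24 CPM over the Gas libraries. Of these markers Cidea alone passed the filter and rose by 1.71 ± 0.13 on the log2 scale. In every Gas library Lep was at 0, Adipoq at or below 0.220 CPM, Plin1 at or below 0.362 and Fabp4 at or below 0.911. The part of these markers in the result was not tested.

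**Figure D2:**
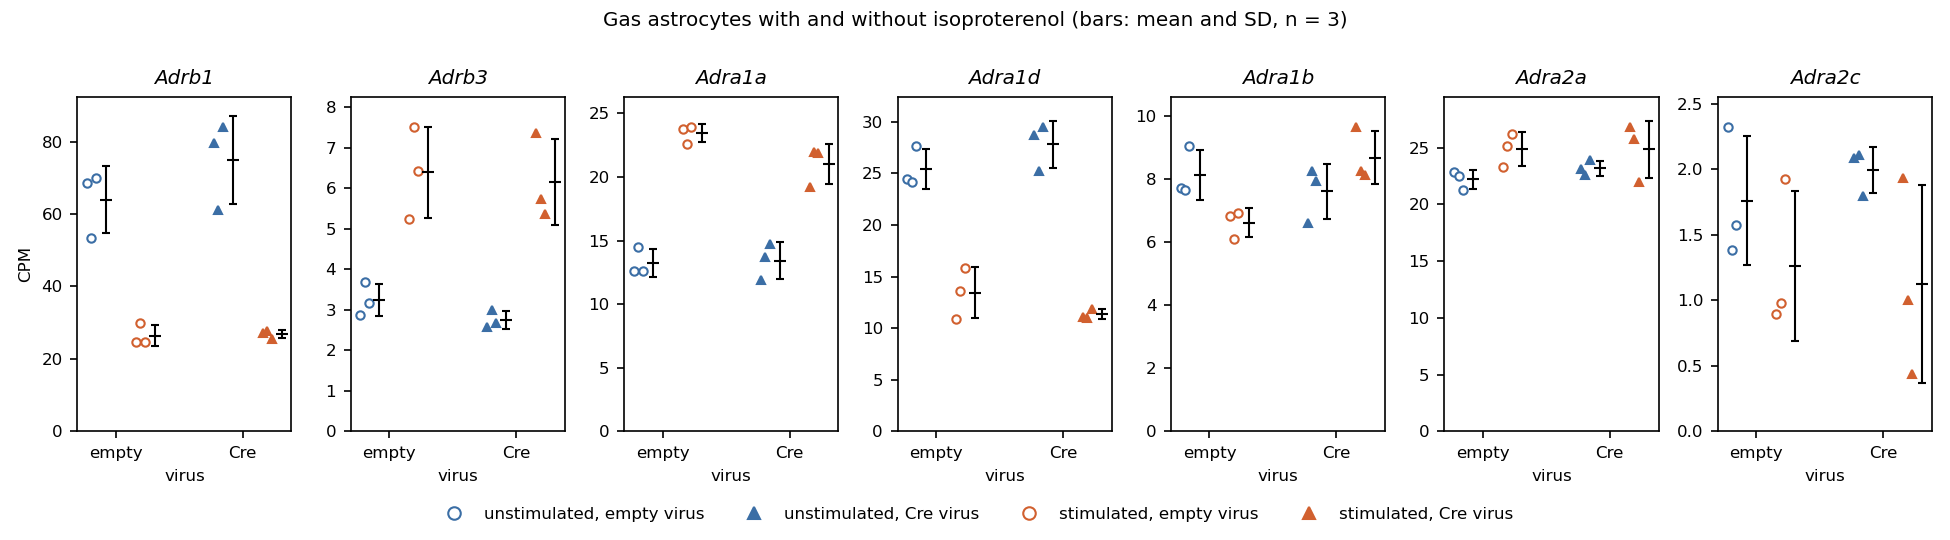
Level of 7 receptor genes in Gas astrocytes (CPM, linear axes) with empty or Cre virus, unstimulated or given isoproterenol; points are libraries and bars mean and SD (n = 3). Adrb1 and Adra1d are lower and Adra1a and Adrb3 higher in all stimulated libraries, while Adra1b, Adra2a and Adra2c overlap.

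The promoters of Adrb1 and Adra2a are shown because their windows hold TGACG, the core of the cAMP response element, and isoproterenol acts through cAMP. RefSeq's table (GRCm38.p6, an earlier build than that of the counts) held 5 of the 8 genes; Adra1a, Adra1d and Adrb3 had no entry. The windows are the 250 bases before the annotated start, 5′ to 3′ on the plus strand, at chr19:56721867-56722116 for Adrb1 and chr19:54045009-54045258 for Adra2a, with TGACG in capitals.
Adrb1: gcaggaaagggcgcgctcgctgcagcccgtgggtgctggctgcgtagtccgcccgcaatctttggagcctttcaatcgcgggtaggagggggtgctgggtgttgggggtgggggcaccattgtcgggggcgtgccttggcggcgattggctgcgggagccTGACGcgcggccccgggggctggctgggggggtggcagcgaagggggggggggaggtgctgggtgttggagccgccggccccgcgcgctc
Adra2a: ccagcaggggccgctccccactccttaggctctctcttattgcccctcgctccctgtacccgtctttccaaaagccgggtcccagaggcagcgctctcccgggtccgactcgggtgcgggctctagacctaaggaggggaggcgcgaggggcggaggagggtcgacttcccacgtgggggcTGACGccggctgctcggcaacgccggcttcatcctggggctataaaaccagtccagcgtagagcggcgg
The first base of TGACG lies 90 bases before the start of Adrb1 and 69 before that of Adra2a. TGACG or its reverse complement CGTCA was present in 17.8% of 32851 promoter windows of this length, and the full palindrome TGACGTCA in 1.55%. No window of the 5 genes holds the palindrome, and those of Adra1b (both starts), Adra2b and Adra2c hold neither. These matches describe letters in a window, and nothing was measured at them.

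Among the alpha-1 receptors Adra1d fell and Adra1a rose with isoproterenol, and Adra1b did not pass the test. Adra1d measured 24.5, 24.2 and 27.7 CPM at rest with empty virus and 28.7, 25.2 and 29.5 CPM with Cre. With isoproterenol it measured 10.9, 13.6 and 15.8 CPM and 11.1, 11.02 and 11.9 CPM. No stimulated library overlapped an unstimulated one, and the mean log2 change was -1.05 ± 0.08 (edgeR adjusted p = 1.67e-13). Adra1a measured 12.6, 14.5 and 12.6 CPM at rest with empty virus and 11.9, 13.7 and 14.7 CPM with Cre. With isoproterenol it measured 23.8, 22.6 and 23.9 CPM and 19.2, 22.00 and 21.9 CPM. Again the states did not overlap, and the mean log2 change was 0.78 ± 0.07 (edgeR adjusted p = 5.01e-11). Adra1b measured 6.62 to 9.04 CPM at rest and 6.10 to 9.65 CPM with isoproterenol (medians 7.83 and 7.54), a mean log2 change of -0.01 ± 0.10 (edgeR adjusted p = 0.968). Adra1d shares 147 of its 1899 exonic bases with the gene model Gm14285 on the opposite strand, and the part of its counts that comes from Gm14285 is not known either.

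Of the alpha-2 receptors, Adra2a rose slightly with isoproterenol. It measured 22.8, 22.5 and 21.3 CPM at rest with empty virus and 23.1, 22.6 and 23.9 CPM with Cre. With isoproterenol it measured 23.3, 25.1 and 26.2 CPM and 26.8, 25.8 and 22.01 CPM, so the states overlapped. The rise of 0.19 ± 0.06 on the log2 scale was called in the mean of both viruses (edgeR adjusted p = 0.0279) and under neither virus alone. The call was lost in a fit over all 48 libraries (edgeR adjusted p = 0.166) and without stimulated Cre replicate 1 or 2, stimulated empty replicate 3, unstimulated Cre replicate 2 or unstimulated empty replicate 3 (adjusted p up to 0.0930). Adra2c measured 1.38 to 2.32 CPM at rest and 0.434 to 1.93 CPM with isoproterenol (medians 1.94 and 0.987), with overlapping states and a log2 change of -0.57 ± 0.26 that did not pass the test (edgeR adjusted p = 0.126). Adra2b had 7 counts at rest and 11 with isoproterenol, a ratio of CPM of 1.59 (95% exact interval 0.561 to 4.82, counting error only).

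The make-up of the 8 receptor RNAs in astrocytes differed between the states. Their summed level per length was 48.1 ± 4.86 CPM per kb at rest and 28.7 ± 1.69 with isoproterenol (SD, n = 6). Within that sum Adrb1 and Adrb3 held 24.6 ± 3.72 CPM per kb at rest and 11.2 ± 0.956 with agonist, the alpha-1 genes 18.3 ± 1.20 and 12.03 ± 0.975, and the alpha-2 genes 5.25 ± 0.239 and 5.51 ± 0.534. As a share of these 8, Adrb1 went from 48.7 ± 3.26% to 31.4 ± 2.09% and Adra1d from 29.2 ± 1.11% to 22.7 ± 2.71%. The share of Adra2a went from 9.84 ± 0.904% to 17.9 ± 0.846%, that of Adra1a from 4.09 ± 0.611% to 11.3 ± 1.17% and that of Adrb3 from 2.19 ± 0.501% to 7.51 ± 0.844%. Adrb1 stayed first in level, at 9.03 ± 0.693 CPM per kb with isoproterenol, before Adra1d at 6.53 ± 1.03 and Adra2a at 5.15 ± 0.383. Adra1a, at 3.24 ± 0.250 CPM per kb, then stood above Adra1b at 2.26 ± 0.378 and Adrb3 at 2.17 ± 0.341, with overlapping ranges between Adra1a and Adra1b and between Adra1b and Adrb3. The share of Adra2a thus went up with a log2 change of 0.19 ± 0.06 in its own level.

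**Figure D3:**
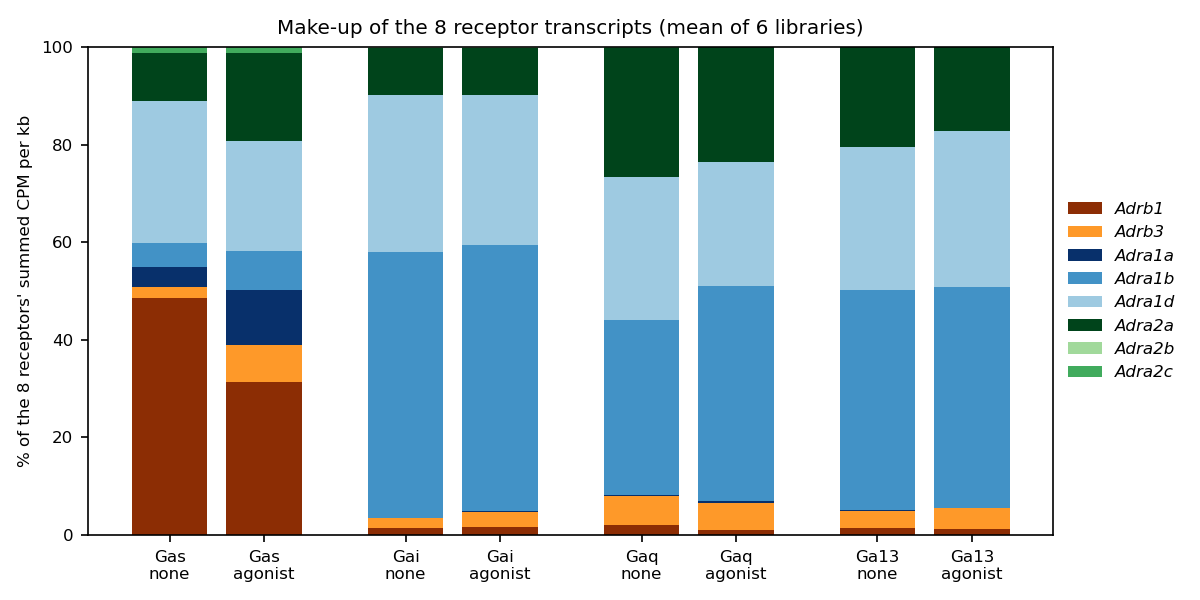
Share of each gene in the summed level per length of the 8 receptors (percent of summed CPM per kb, mean of 6 libraries over both viruses), unstimulated and with agonist in each line. In astrocytes the share of Adrb1 is 48.7% at rest and 31.4% with isoproterenol, and in unstimulated fibroblasts Adra1b holds 54.5% in Gai, 35.99% in Gaq and 45.1% in Ga13.

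Cre virus made no called difference to these genes in astrocytes. None of the 7 was called between Cre and empty virus at rest (edgeR, 0 at an unadjusted p under 0.05, 0 with DESeq2; 0.00552% of genes called) or with isoproterenol (edgeR, 2 at an unadjusted p under 0.05, 0 with DESeq2; 0.0166% of genes called). Adrb1 differed by 0.22 ± 0.12 at rest and by 0.03 ± 0.14 with isoproterenol on the log2 scale. In the test of whether the isoproterenol response differed between viruses, none was called (edgeR, 2 at an unadjusted p under 0.05, 0 with DESeq2; 0% of genes called). That difference was -0.41 ± 0.15 for Adra1d, 0.45 ± 0.20 for Adra1b and -0.20 ± 0.19 for Adrb1.

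Other genes of adrenergic signalling were read from lists of the steps around the receptor. The median log2 change of all tested genes in the mean isoproterenol response was -0.0037, and 11.7% of them were called higher and 11.5% lower, against which each count below is to be read. Of 9 tested genes of catecholamine synthesis, transport and breakdown 2 rose and 0 fell (median 0.09). These were Slc18a2, the vesicular monoamine transporter, by 0.52 ± 0.14, and Slc6a2, the noradrenaline transporter, by 1.37 ± 0.48 from a level of 0.222 CPM at rest with empty virus. Of 9 G protein alpha subunits 3 rose and 1 fell (median 0.06). Gna14, of the Gq family, rose by 0.54 ± 0.09, Gnao1 by 0.12 ± 0.03 and Gnas, which encodes the Gs subunit, by 0.11 ± 0.03, and Gnai3 changed by -0.11 ± 0.04.

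Of 23 receptor kinases, arrestins and sorting proteins 2 rose and 5 fell (median -0.0035). Arrdc3, an alpha-arrestin known to act on beta receptors, went from 47.5 ± 11.4 to 272 ± 16.5 CPM with empty virus (SD, n = 3) and rose by 2.62 ± 0.12 on the log2 scale in the mean response (edgeR adjusted p = 2.57e-07). Arrdc4 changed by -0.27 ± 0.07, the scaffold gene Nherf2 by -0.30 ± 0.07 and the receptor deubiquitinase gene Usp20 by -0.19 ± 0.06. Of 27 genes of the cAMP and PKA arm 9 rose and 2 fell (median 0.08). Pde4d, which breaks down cAMP, rose by 2.91 ± 0.21, Crem, a cAMP-responsive transcription factor, by 2.19 ± 0.10 and the PKA regulatory subunit gene Prkar2a by 0.45 ± 0.04, while Creb1 changed by -0.41 ± 0.05. Of 14 genes of the phospholipase C arm 2 rose and 2 fell (median 0.06). Rgs2, which shuts off Gq, rose by 2.12 ± 0.04 and the protein kinase C gene Prkce by 0.18 ± 0.05, while Prkcd changed by -0.335 and Rgs4 by -0.37 ± 0.13. Of 14 other amine and acetylcholine receptors 2 rose and 2 fell (median 0.13). The muscarinic receptor gene Chrm2 rose by 1.67 ± 0.27 and the serotonin receptor gene Htr2a by 0.61 ± 0.16, while Htr1b changed by -0.94 ± 0.21 and Chrm4 by -0.63 ± 0.22.

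Cell type markers were called in both directions in the same response, in which 11.7% of all tested genes were called higher and 11.5% lower. Of the tested markers 4 of 10 for astrocytes were higher and 1 lower, 3 of 9 for fibroblasts were higher, and for microglia and macrophages 2 of 9 were higher and 1 lower. For the oligodendrocyte lineage and for smooth muscle and pericytes 1 of 7 was higher and 1 lower each, for neurons 1 of 7 and for lung epithelium 1 of 2 was higher. None of 4 ependymal or 5 endothelial markers was called, and no mesothelial marker was tested. Summed astrocyte markers were 9134 to 9612 CPM at rest and 9072 to 9894 CPM with isoproterenol, and the part of these shifts in the receptor values was not tested.

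In fibroblasts the agonist acts on PAR1 and not on adrenergic receptors, and the comparison asks whether the RNA of the receptor genes differed after it. Adra2a measured 3.77 to 5.04 CPM at rest and 2.69 to 3.75 CPM with TRAP-6 in Gai (6 libraries each, medians 4.45 and 3.46). It measured 7.05 to 10.2 and 4.36 to 8.27 CPM in Gaq (medians 8.01 and 5.61), and 5.40 to 9.23 and 4.22 to 6.16 CPM in Ga13 (medians 6.82 and 5.00). The states did not overlap in Gai and overlapped in Gaq and Ga13. The mean log2 change was -0.42 ± 0.13 in Gai, which did not pass the test (edgeR adjusted p = 0.167), -0.42 ± 0.12 in Gaq (edgeR adjusted p = 0.0289) and -0.38 ± 0.12 in Ga13 (edgeR adjusted p = 0.0394). It was the 1 receptor gene called of 4 tested in Gaq and of 4 in Ga13, where 5.61% and 8.38% of genes were called, and none of 5 was called in Gai (edgeR, 2 at an unadjusted p under 0.05, 0 with DESeq2; 1.12% of genes called). With a replicate block in the fit Adra2a was called in Gai (edgeR adjusted p = 0.0422). With DESeq2 the adjusted p was 0.0507 in Gaq and 0.0556 in Ga13, and both calls were lost. The Gaq call was also lost without stimulated replicate 1 or 2 of either virus, unstimulated Cre replicate 1 or 3, or unstimulated empty replicate 3 (adjusted p up to 0.131), and the Ga13 call without stimulated replicate 1 or 2 or unstimulated replicate 2 or 3 of either virus (adjusted p up to 0.134).

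Over the 36 fibroblast libraries together, a comparison chosen after the values of each line were seen, Adra2a fell by 0.40 on the log2 scale with TRAP-6 (-0.40 ± 0.07, edgeR adjusted p = 4.75e-05), where 12.0% of genes were called, 5.54% lower. DESeq2, with which the Adra2a calls of Gaq and of Ga13 alone were lost, was not run for this comparison. Adra2a was the 1 receptor gene of 5 called and was called in each of the 36 fits without 1 library. Those fits also used the test without its robust setting, so a changed call there cannot be credited to the library alone. The full fit used that setting. Adra1d changed by -0.27 ± 0.10 in that fit and did not pass the test (edgeR adjusted p = 0.0559), but passed without Ga13 stimulated empty replicate 2, Ga13 unstimulated empty replicate 3, Gai stimulated Cre replicate 1 or Gaq stimulated Cre replicate 1 (adjusted p down to 0.00743). By line it changed by -0.41 ± 0.15 in Gai, -0.40 ± 0.16 in Gaq and -0.01 ± 0.16 in Ga13, none called. Adra1b, the most abundant of the 8 in fibroblasts, changed by -0.32 ± 0.18, 0.09 ± 0.11 and -0.14 ± 0.10, and Adrb3 by 0.40 ± 0.35, -0.31 ± 0.29 and 0.09 ± 0.32, none called. A test of whether the TRAP-6 response differed between the 3 lines called none of 5 receptor genes (edgeR, 0 at an unadjusted p under 0.05, 0 with DESeq2; 0.299% of genes called). For Adra2a the response in Gaq differed from that in Gai by 0.01 ± 0.17 and the response in Ga13 from that in Gai by 0.04 ± 0.18 on the log2 scale.

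**Figure D4:**
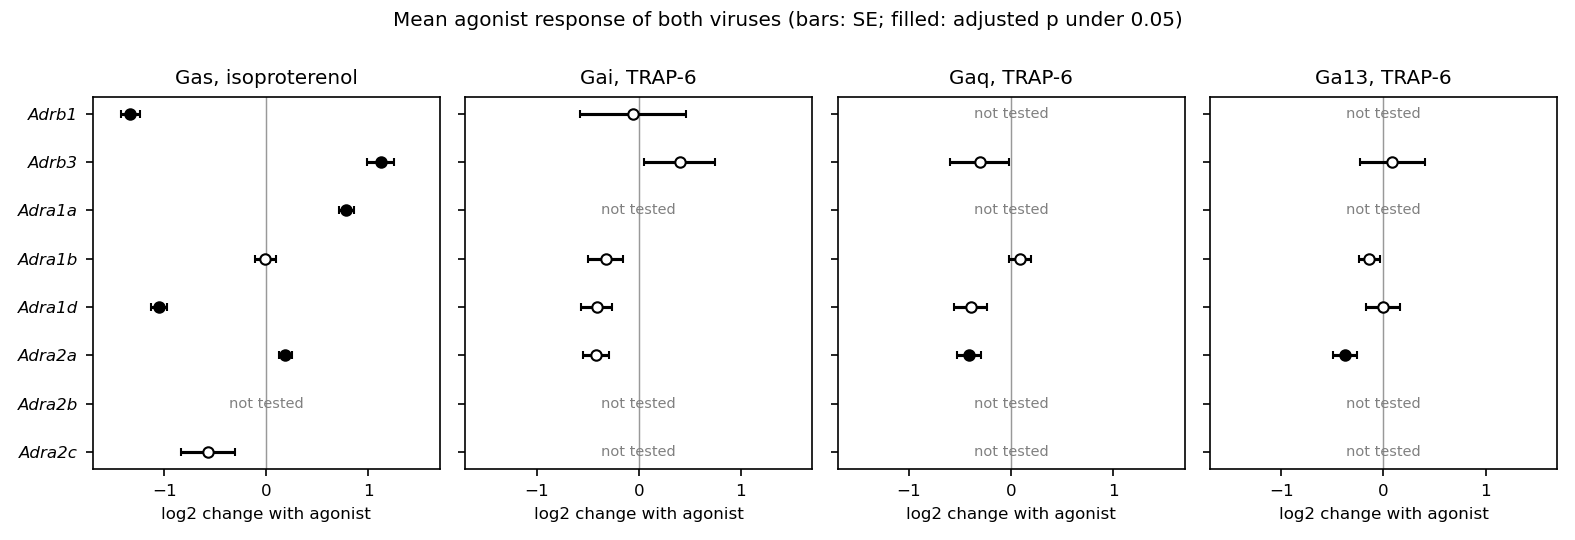
Log2 change with agonist, mean of both viruses, for each receptor gene in each line (bars are 1 SE, filled points have an edgeR adjusted p under 0.05, and genes under the filter on low counts are marked as not tested). In astrocytes Adrb1 and Adra1d (-1.05) are below 0 and Adra1a (0.78) and Adrb3 (1.12) above it, and Adra2a lies between -0.42 and -0.38 in the fibroblast lines.

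Under each virus alone, the TRAP-6 response of Adra2a was called in Gaq with Cre. There it went from 9.14, 8.20 and 10.2 CPM to 4.36, 5.52 and 7.04 CPM with no overlap, a log2 change of -0.68 ± 0.16 (edgeR adjusted p = 0.0109, 3.37% of genes called). With empty virus in Gaq it went from 7.25, 7.05 and 7.83 CPM to 5.69, 5.52 and 8.27 CPM with overlap, a change of -0.15 ± 0.17 (edgeR adjusted p = 0.807). The difference between these responses, -0.53 ± 0.24, did not pass its own test (edgeR adjusted p = 0.693, 0.161% of genes called). The call with Cre was lost without stimulated Cre replicate 1 or unstimulated Cre replicate 1 or 3 (adjusted p up to 0.159). In Gai the change was -0.34 ± 0.18 with empty virus and -0.50 ± 0.18 with Cre, and in Ga13 -0.54 ± 0.17 and -0.21 ± 0.16, none called. In these comparisons no other receptor gene was called either: not in Gai with empty virus (edgeR, 0 at an unadjusted p under 0.05, 0 with DESeq2; 0.119% of genes called) or Cre (edgeR, 2 at an unadjusted p under 0.05, 0 with DESeq2; 0.238% of genes called), in Ga13 with empty virus (edgeR, 2 at an unadjusted p under 0.05, 0 with DESeq2; 3.88% of genes called) or Cre (edgeR, 0 at an unadjusted p under 0.05, 0 with DESeq2; 5.37% of genes called), or in Gaq with empty virus (edgeR, 1 at an unadjusted p under 0.05, 0 with DESeq2; 2.65% of genes called). Nor was a difference of responses between viruses called in Gai (edgeR, 0 at an unadjusted p under 0.05, 0 with DESeq2; 0% of genes called) or Ga13 (edgeR, 1 at an unadjusted p under 0.05, 0 with DESeq2; 0.0821% of genes called).

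**Figure D5:**
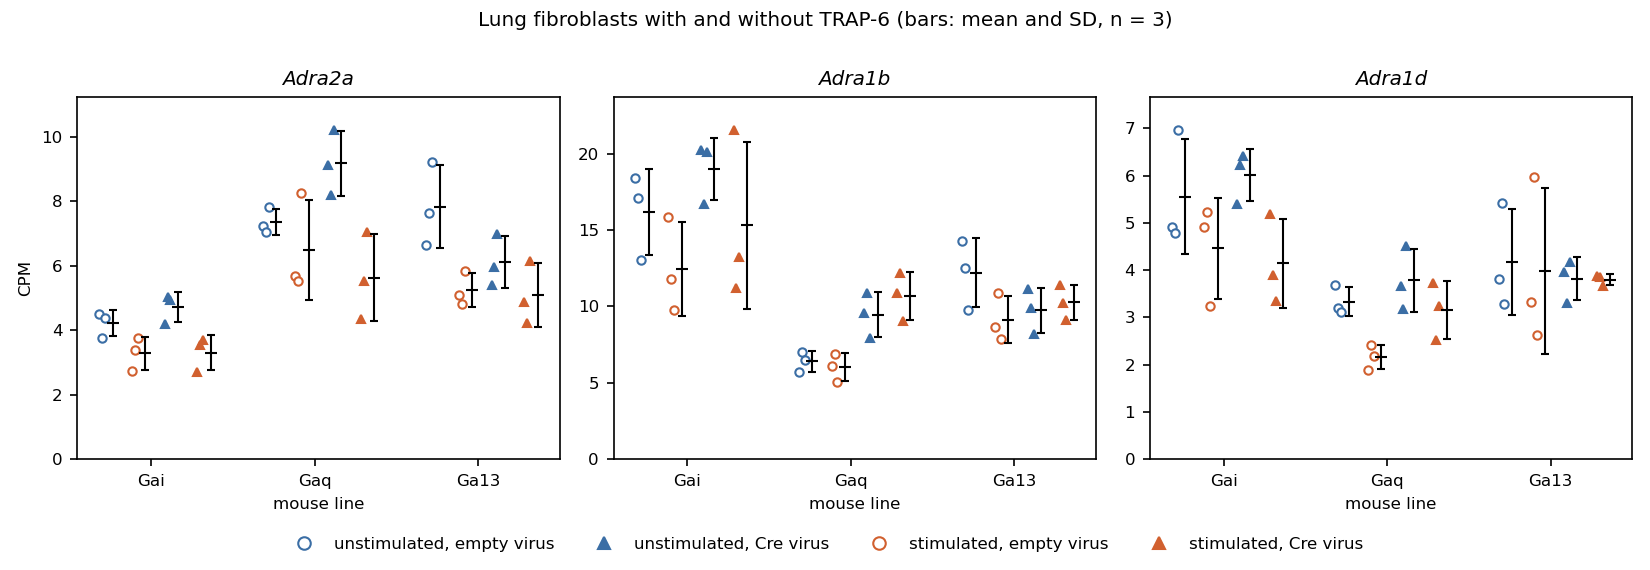
Level of Adra2a, Adra1b and Adra1d in lung fibroblasts (CPM, linear axes) by line, state and virus; points are libraries and bars mean and SD (n = 3). Mean Adra2a is lower with TRAP-6 than at rest in each line under each virus, and Adra1b in Gaq lies higher with Cre than with empty virus in both states.

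The signalling lists were read in the same way with TRAP-6, where 1.12% of all tested genes were called in Gai, 5.61% in Gaq and 8.38% in Ga13, and the median log2 change of all genes was -0.0017, -0.0063 and -0.0016. In Gaq 2 of 24 rose and 1 fell (median 0.01) in the cAMP and PKA arm and 1 of 22 rose and 2 fell (median 0.02) among receptor kinases, arrestins and sorting proteins. In Ga13, of the cAMP and PKA arm, 3 of 25 rose and 1 fell (median 0.03) and, of the receptor kinases, arrestins and sorting proteins, 1 of 22 rose and 1 fell (median -0.03). Of the phospholipase C arm 1 of 14 rose in Gaq and 2 of 14 in Ga13, and of the other amine and acetylcholine receptors 1 of 7 in each. In Gai the 1 gene called over the 6 lists was the serotonin receptor gene Htr1b, up by 0.64 ± 0.10. Htr1b also rose in Gaq by 0.83 ± 0.08 and in Ga13 by 0.93 ± 0.09, whereas it fell in astrocytes given isoproterenol. Rgs2 was higher with TRAP-6 in Gaq (1.19 ± 0.10) and Ga13 (1.05 ± 0.13), as was Crem, by 0.66 ± 0.08 and 0.66 ± 0.08. Arrdc3 changed by -0.62 ± 0.09 in Gaq and -0.75 ± 0.13 in Ga13, where it fell, and rose in astrocytes given isoproterenol. The scaffold gene Magi3 rose by 0.29 ± 0.08 and 0.31 ± 0.05, and Akap5, a PKA anchor, changed by -0.30 ± 0.08 and -0.41 ± 0.07, again in Gaq and Ga13. The other called genes were Nherf1 (-0.21 ± 0.06) and Pde4b (0.19 ± 0.04) in Gaq, and Plcb4 (0.17 ± 0.05), Akap12 (0.12 ± 0.04) and Adcy5 (0.325) in Ga13. No G protein alpha subunit of 9 and no catecholamine gene of 6 tested was called in Gai, Gaq or Ga13. Of 10 fibroblast markers none was called in Gai, and Pdgfra alone was called in Gaq (-0.14 ± 0.03) and Ga13 (-0.18 ± 0.03). Of 9 smooth muscle and pericyte markers 3 rose in Gaq and 2 in Ga13, and their part in the Adra2a values was not tested.

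Between Cre and empty virus 1 receptor gene was called, Adra1b in Gaq fibroblasts. At rest it measured 5.69, 7.05 and 6.52 CPM with empty virus and 9.54, 10.9 and 7.93 CPM with Cre, a log2 difference of 0.56 ± 0.15 (edgeR adjusted p = 0.0380), where 2.65% of genes were called, 1.28% higher. With TRAP-6 it measured 6.12, 6.89 and 5.08 CPM with empty virus and 10.9, 12.2 and 9.02 CPM with Cre, a difference of 0.84 ± 0.16 (edgeR adjusted p = 0.000849), where 3.41% of genes were called, 1.99% higher. The viruses did not overlap in either state. The call at rest was lost in the fit over all 48 libraries (edgeR adjusted p = 0.209) and without any 1 unstimulated empty replicate, unstimulated Cre replicate 1 or 2 or stimulated Cre replicate 1 (adjusted p up to 0.238), and the call with TRAP-6 held in all of these fits. Fibroblast markers moved with it: their summed level in Gaq was 36646 to 39220.2 CPM with empty virus and 42132 to 45035 CPM with Cre at rest, and 36307 to 36773 against 41707 to 46719 CPM with TRAP-6. Of those markers 3 of 10 were called higher with Cre at rest and 7 with TRAP-6. Summed mesothelial markers were also higher with Cre, at 561 to 709 against 715 to 825 CPM at rest and 569 to 707 against 779 to 839 CPM with TRAP-6. Those of the oligodendrocyte lineage were lower, at 54.4 to 57.9 against 46.3 to 49.1 CPM and 53.8 to 56.7 against 37.2 to 41.3 CPM. In that list Olig1, Olig2 and Mog had no counts in any Gaq group, so the sum came from its other genes. The part of these markers in the Adra1b difference was not tested.

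In the other fibroblast lines no receptor gene was called between the viruses. In Gai this held at rest (edgeR, 0 at an unadjusted p under 0.05, 0 with DESeq2; 0% of genes called) and with TRAP-6 (edgeR, 0 at an unadjusted p under 0.05, 0 with DESeq2; 0% of genes called), with Adra1b at 0.23 ± 0.25 and 0.27 ± 0.25 on the log2 scale. In Ga13 it held at rest (edgeR, 2 at an unadjusted p under 0.05, 0 with DESeq2; 0.00632% of genes called) and with TRAP-6 (edgeR, 0 at an unadjusted p under 0.05, 0 with DESeq2; 0.0379% of genes called), with Adra1b at -0.34 ± 0.14 and 0.17 ± 0.15. Whether the virus difference itself differed between lines was not tested.

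Levels over all groups were also compared between the 3 fibroblast lines. Adra1b (edgeR adjusted p = 9.43e-09), Adra1d (edgeR adjusted p = 2.76e-06) and Adra2a (edgeR adjusted p = 3.50e-10) were called of 5 tested, a share close to the 63.0% of all genes that were called. Adra1b differed by -1.02 ± 0.11 (log2, Gaq minus Gai, 57.7% of genes called), -0.60 ± 0.10 (Ga13 minus Gai, 53.5% called) and 0.42 ± 0.11 (Ga13 minus Gaq, 19.9% called), highest in Gai. Adra1d had the same order, with -0.75 ± 0.12, -0.34 ± 0.11 and 0.41 ± 0.12 for the same pairs. Adra2a was lowest in Gai, with 0.83 ± 0.09 and 0.64 ± 0.09, while Ga13 and Gaq differed by -0.19 ± 0.08 and did not pass the test (edgeR adjusted p = 0.122). Adrb3 (edgeR adjusted p = 0.0758) and Adrb1 (edgeR adjusted p = 0.399) did not pass the test over the 3 lines, although Adrb3 was called in the pair of Gaq and Gai (0.57 ± 0.23, edgeR adjusted p = 0.0290). The biosensor allele and the cultures taken from each line cannot be told apart. Summed markers of microglia and macrophages stood at 98.7 to 153 CPM in Gai, 46.2 to 63.8 in Gaq and 38.9 to 51.8 in Ga13. Those of fibroblasts stood at 27926 to 41654, 36307 to 46719 and 45723 to 48821 CPM. Those of smooth muscle and pericytes stood at 3220 to 4051, 1820 to 2306 and 2726 to 3431 CPM, in the order of lines seen for Adra1b and Adra1d. The part of these cells in the differences was not tested.

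Likeness to other genes was ranked by the Pearson correlation of log2 CPM, as a description only, since the points share libraries and the difference between the cell types weighs heavily in it. Over the 16 group means the genes most like Adrb1 were Notch1, Kcnf1 and Tekt5 (r of 0.992 at most), and those most like Adra1a were Mgat5b, Dbx2 and Klhl3 (r of 0.995 at most). For Adrb3 they were Prima1, Xrcc2 and Camkmt (r = 0.975 to 0.979), for Adra1b Scp2, Il6st and Serpinb9 (r = 0.966 to 0.979) and for Adra1d Mphosph8, Ubtd2 and Plekhg2 (r = 0.975 to 0.985). For Adra2a they were Vhl, Tbc1d14 and Ppm1f (r = 0.979 to 0.981) and for Adra2c Krt1, Kcnc1 and Wnt8b (r of 0.996 at most). Over the 12 Gas libraries, where the state sets most of the pattern, Adrb1 went with Foxo6, Nab2, Pard6b, Irf2bpl and Trim47 (r = 0.993 to 0.995) and Adrb3 with Cpe, Cited2, Mxi1, Gata2 and Hlx (r of 0.984 at most). Adra1d went with Ski, Ppp1r13l, Scx, Prx and Zfp202 (r of 0.983 at most). For Adra2a the highest correlation was 0.930 in Gas, with Mpnd, 0.903 in Gaq, with E2f8, and 0.955 in Ga13, with Il4ra.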

How the data were processed

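RNA of 48 libraries was sequenced, with poly-A selection and random hexamers per the labels' protocols. The authors deposited whole-number counts per gene, and the submitters' processing notes name fastp, Subread, featureCounts and the GRCm39 build, with versions and strand setting not given in the sources used here. Groups came from the sample titles. Each line was fitted with edgeR 4.0.16 (R 4.3.3, limma 3.58.1) as 1 mean per group, with TMM scaling, filterByExpr and the robust quasi-likelihood F test, two-sided. The 36 fibroblast libraries and all 48 were fitted likewise for differences between lines. The SE is the size of the log2 change over the square root of F. CPM uses library totals, and exon lengths are from GENCODE vM21, an annotation of an earlier build than that of the counts. On simulated counts for the mean isoproterenol response over 18104 genes, 92.5% of 1.5-fold changes were recovered. Those counts gave every gene the same spread, and the changes were placed only in genes above a minimum mean count. The figure is thus not the recovery for receptor genes with fewer counts or more scatter. DESeq2 1.42.0, RLE scaling, no filter, a replicate block, 1 fit over 48 libraries and each library left out were alternatives. Where a library was left out of a fit across lines, the test was run without its robust setting. Named beside the 8 genes were up to 4 called genes per list and line with the smallest p, and for likeness the 3 most correlated genes over group means and the 5 over a line's libraries; cell markers were named as well. The likeness of Adra1a over the Gas libraries is not reported here. The 8 genes, the 6 signalling lists and the 11 marker lists were chosen with earlier results of these data known.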

Additional observations from a re-analysis of the deposited data

How the results depend on the processing

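Over 28 comparisons and 543 alternative fits, the number of receptor genes called stayed within 1.5 times the reported number in 506 and moved further in 37. Many of these comparisons called 0 genes, and 0 against 0 was counted as unchanged. The 506 therefore says little about how firm the calls are. No direction reversed. DESeq2 was not run for the mean TRAP-6 response of the 3 fibroblast lines. With DESeq2 the number went from 1 to 0 for the mean TRAP-6 response in Gaq and in Ga13. In 1 fit over all 48 libraries it went from 1 to 0 for Cre against empty virus at rest in Gaq. With no filter on low counts it was 2 for the mean TRAP-6 response of the 3 fibroblast lines (Adra1d joined, edgeR adjusted p = 0.0239) and 1 for the TRAP-6 response with empty virus in Ga13. The replicate block gave 2 and 1 for the same comparisons, and 1 in place of 0 for the mean TRAP-6 response in Gai (Adra2a, edgeR adjusted p = 0.0422). The cause of these changes was not tested. Leaving out 1 library gave 0 to 1 called genes for Cre against empty virus at rest in Gaq, for the TRAP-6 response with Cre in Gaq, with empty virus in Ga13, and in the mean of both viruses in Gaq and in Ga13. It gave 1 to 2 for the mean of the 3 fibroblast lines. In Ga13 with empty virus the gene called without unstimulated empty replicate 3 was Adra1b (edgeR adjusted p = 0.0447). For the level of astrocytes against fibroblasts only the 12 libraries of the compared groups were left out in turn. Fits across lines with 1 library left out also lacked the robust setting of the test, so they differ from the full fits in both respects. Same-numbered replicates correlated, as deviations from their group means, at -0.02 to 0.10 in Gas, 0.03 to 0.37 in Gai, -0.02 to 0.09 in Gaq and -0.01 to 0.09 in Ga13, so the numbers were not taken to pair the samples. In Gai the pairs of replicate 1 correlated at 0.30 to 0.37 and those of the other numbers at 0.03 to 0.17. Pairs of different numbers had a median correlation of -0.149 in Gai, against 0.0984 for the same number. In the other lines that median was -0.0211 to -0.0158. Whether replicate 1 of the Gai groups was a shared batch was not tested. Depth limits Adra2b everywhere and Adra1a, Adra2c and Adrb1 in fibroblasts.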
